A study of Mus musculus with 8 samples.

Results

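The genes described here are *Cybb*, *Cyba*, *Ncf1*, *Ncf4*, *Rac2* and *Hvcn1*, which belong to the phagocyte NADPH oxidase or serve it, and *Padi4*, a histone-modifying enzyme of neutrophils. They were chosen by symbol, and all 7 were found once each among the 54188 genes of the count table. RNA was sequenced from CD11b+Gr-1hi and CD11b+Gr-1lo cells sorted from the spleen (SP) and bone marrow (BM) of sanroque mice, with 2 libraries for each of the 4 groups and 8 in all. All the mice were homozygous for the sanroque allele of Roquin (Roquin san/san) on a C57BL/6 background, about 20 weeks old, untreated and labelled female, and no wild-type library was used here, so differences are between tissues or subsets of mutant mice. Libraries 5 and 6 are SP Gr-1hi, 7 and 8 SP Gr-1lo, 9 and 10 BM Gr-1hi, and 11 and 12 BM Gr-1lo. The labels call Gr-1hi cells granulocytic and Gr-1lo cells monocytic myeloid-derived suppressor cells. They do not say which libraries share a mouse.

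The phagocyte NADPH oxidase moves electrons from NADPH across a membrane to oxygen and so makes superoxide, which neutrophils and monocytes use to kill microbes. Its core, cytochrome b558, is a heterodimer of gp91phox (*Cybb*) and p22phox (*Cyba*). On activation cytosolic proteins that include p47phox (*Ncf1*) and p40phox (*Ncf4*) and the GTPase Rac2 (*Rac2*) join it, and the voltage-gated proton channel encoded by *Hvcn1* lets protons out to balance the charge. *Padi4* encodes peptidylarginine deiminase 4, which converts arginine of histones to citrulline and takes part in the release of neutrophil extracellular traps (NETs).

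In GRCm38, *Cybb* (ENSMUSG00000015340) lies on chromosome X from 9435252 to 9487771 and *Cyba* (ENSMUSG00000006519) on chromosome 8 from 122424776 to 122432930, both on the minus strand. *Ncf1* (ENSMUSG00000015950) lies on chromosome 5 from 134220053 to 134229625 on the minus strand, and *Hvcn1* (ENSMUSG00000064267) on the same chromosome from 122206804 to 122242297 on the plus strand. *Ncf4* (ENSMUSG00000071715, from 78244801 to 78262580, plus strand) and *Rac2* (ENSMUSG00000033220, from 78559167 to 78572783, minus strand) are 296586 bases apart on chromosome 15. *Padi4* (ENSMUSG00000025330) lies on chromosome 4 from 140745865 to 140774236 on the minus strand, beside the other genes of its family. 2 of the genes share exon sequence with a gene on the opposite strand: *Hvcn1* shares 1574 bases with *Tctn1*, and *Ncf1* shares 408 bases with *Gtf2ird2*. The table is labelled as stranded, but the strand setting of the counting is not given in the sources used here, so some reads of these pairs could be counted on the wrong gene. *Gtf2ird2* had at most 7.97 CPM in any library and *Tctn1* at most 92.7 CPM.

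The RefSeq promoter table (GRCm38.p6) held 4 of the 7 genes. The 250 bases before the start site of *Cybb* and *Ncf1* are shown because both hold 2 copies of GAAA with any 2 bases between them, a form of the interferon response element (searched on both strands), and that of *Padi4*, the gene with the largest difference between subsets, because it holds a TATA box (TATAAA, both strands). Capitals mark these matches. The GAAA pair occurred in 2.98% and TATAAA in 12.4% of all 32851 promoters of the same length. The *Cyba* promoter held neither. GAGGAA, a form of the sequence bound by PU.1, occurred in 23.3% of all promoters and in none of the 4. Shorter forms of it were not searched. The *Cybb* sequence is at chrX:9469325-9469574, that of *Ncf1* at chr5:134229626-134229875 and that of *Padi4* at chr4:140774204-140774453, all on the minus strand and written 5′ to 3′.
Cybb: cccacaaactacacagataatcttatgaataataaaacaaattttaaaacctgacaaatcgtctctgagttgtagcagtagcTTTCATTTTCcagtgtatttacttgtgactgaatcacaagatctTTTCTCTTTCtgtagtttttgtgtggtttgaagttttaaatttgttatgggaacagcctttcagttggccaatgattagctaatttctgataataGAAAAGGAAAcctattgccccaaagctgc
Ncf1: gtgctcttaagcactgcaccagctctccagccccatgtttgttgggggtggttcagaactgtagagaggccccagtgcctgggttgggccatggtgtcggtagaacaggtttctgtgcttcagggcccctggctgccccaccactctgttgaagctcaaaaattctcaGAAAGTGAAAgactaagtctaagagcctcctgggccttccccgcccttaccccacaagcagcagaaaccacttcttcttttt
Padi4: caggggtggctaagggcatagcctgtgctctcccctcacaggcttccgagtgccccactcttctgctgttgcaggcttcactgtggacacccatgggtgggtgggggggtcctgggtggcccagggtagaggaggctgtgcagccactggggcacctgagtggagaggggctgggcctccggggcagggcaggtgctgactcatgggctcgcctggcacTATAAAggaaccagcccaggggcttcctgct
A match is a run of letters, not a shown binding site, and the RefSeq start of *Cybb* lies inside the longer gene span given above. In *Cybb* the 3 matches began 168, 124 and 29 bases before the start site, and in *Ncf1* the single match began 82 bases before it.

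Library totals ran from 33453580 to 68316154 counts. Counts were given as CPM (counts scaled to library size) after TMM scaling, which corrects for the share that abundant genes take of a library, and 17650 genes with enough counts were tested, all 7 genes among them. A gene passed the test at an adjusted p of at most 0.05 by the quasi-likelihood test of edgeR, adjusted over the genes tested after Benjamini and Hochberg, and this test stands behind every adjusted p below unless another is named. The gates were visible in the RNA. *Ly6g*, which encodes a Gr-1 antigen, had 330 to 801 CPM in Gr-1hi and 3.07 to 8.23 CPM in Gr-1lo libraries, *Itgam* (CD11b) had at least 734 CPM in every library, and *Csf1r*, a monocyte gene, had 133 to 375 CPM in Gr-1hi and 436 to 754 CPM in Gr-1lo libraries. Libraries 5 and 7 stood apart by sex-linked genes. *Xist* had 12032 counts in library 5 and 9898 in library 7 against 5 or fewer elsewhere, while *Ddx3y*, on chromosome Y, had 0 counts in library 5 and 33.7 to 82.6 CPM in the other 7. These values go against the female label for 6 libraries and show both genes in library 7, so results are also given without libraries 5 and 7. In bulk RNA, fewer cells of a type and less RNA per cell cannot be told apart.

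In BM, all 7 genes were higher in Gr-1hi than in Gr-1lo cells, by 2.21-fold for *Cybb* to 35.6-fold for *Padi4*. Of all genes tested, 34.5% passed in this direction and 41.2% in the other. Groups did not overlap for any of the 7, as for 40.6% of all genes in this direction. *Padi4* was the only gene of the 7 past the study's stricter limits for this comparison, a fold change (FC) over 8 with adjusted p under 0.01, which 6.56% of all genes passed in this direction.

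**Figure D1:**
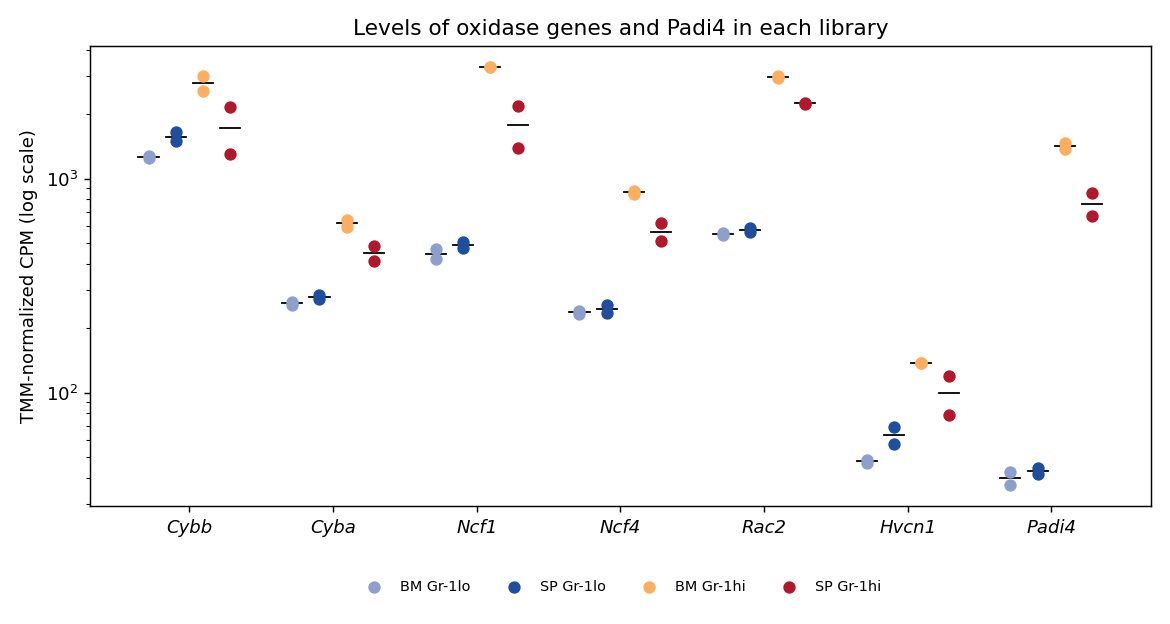
TMM-normalized CPM on a log axis for each gene, with 1 point per library and a bar at the mean of the 2 libraries of a group. In BM the Gr-1hi points lie above the Gr-1lo points for all 7 genes, and for *Cybb* the SP Gr-1hi points, 1300 and 2151 CPM, span those of SP Gr-1lo.

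The catalytic core differed least between BM subsets among the oxidase genes. *Cybb* had 2573 and 2999 CPM in the BM Gr-1hi libraries and 1249 and 1276 CPM in BM Gr-1lo, and the log2 FC was 1.14 (SE 0.21, adjusted p = 0.00108). *Cyba*, its membrane partner, had 595 and 641 CPM against 264 and 258 CPM, and the log2 FC was 1.24 (SE 0.10, adjusted p = 5.3e-06). The groups did not overlap for either gene. The higher of the 2 BM Gr-1hi libraries exceeded the lower by 1.17 times for *Cybb* and by 1.08 times for *Cyba*.

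The cytosolic organizer *Ncf1* differed most among the oxidase genes. It had 3324 and 3325 CPM in BM Gr-1hi and 422 and 470 CPM in BM Gr-1lo, and the log2 FC was 2.90 (SE 0.20, adjusted p = 2.43e-06). *Ncf4*, whose product binds a phosphoinositide, had 848 and 873 CPM against 241 and 234 CPM (log2 FC 1.86, SE 0.11, adjusted p = 9.45e-07). The GTPase gene *Rac2* had 2953 and 3029 CPM against 546 and 554 CPM (log2 FC 2.44, SE 0.09, adjusted p = 1.42e-07). Each of the cytosolic genes had a larger log2 FC than either gene of the membrane core, a difference between genes that was not tested.

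*Hvcn1*, the proton channel gene, was the least abundant of the 6 oxidase genes per exon length as well as in CPM, with 137 and 138 CPM in BM Gr-1hi and 48.4 and 46.9 CPM in BM Gr-1lo (log2 FC 1.53, SE 0.18, adjusted p = 7.81e-05). Its antisense neighbour *Tctn1* moved the same way here, with 46.7 and 46.6 CPM against 12.7 and 14.1 CPM, and it did so in SP too. Its part in the *Hvcn1* value was not tested. *Padi4* had 1461 and 1373 CPM in BM Gr-1hi and 37.0 and 42.8 CPM in BM Gr-1lo (log2 FC 5.15, SE 0.16, adjusted p = 8.85e-08). Only 4.09% of all genes tested differed by as much between these groups in either direction.

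In SP, 6 of the 7 genes were higher in Gr-1hi than in Gr-1lo cells, where 33.6% of all genes passed in this direction and 37.8% in the other. Groups did not overlap for the same 6, as for 40.6% of all genes. *Padi4* was again the only gene past the stricter limits, which 4.44% of all genes passed. It had 665 and 859 CPM in SP Gr-1hi and 41.7 and 44.5 CPM in SP Gr-1lo, a 17.7-fold difference (log2 FC 4.14, SE 0.15, adjusted p = 3.36e-07). *Rac2* had 2233 and 2259 CPM against 590 and 561 CPM (log2 FC 1.97, SE 0.09, adjusted p = 6.21e-07). *Ncf1* had 1389 and 2184 CPM against 505 and 474 CPM (log2 FC 1.87, SE 0.19, adjusted p = 3.78e-05). Over the 7 genes, the higher SP Gr-1hi library exceeded the lower by a median of 1.29 times, against 1.03 to 1.07 times in the other groups. Over the 8597 genes with at least 10 CPM on average, this median was 1.12 times in SP Gr-1hi and 1.06 to 1.09 times in the other groups. Both SP Gr-1hi libraries stayed above SP Gr-1lo for *Padi4*, *Rac2* and *Ncf1*.

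The other SP differences were smaller. *Ncf4* differed by 1.20 on the log2 scale (SE 0.11, adjusted p = 1.6e-05), *Cyba* by 0.68 (SE 0.10, adjusted p = 0.000283) and *Hvcn1* by 0.66 (SE 0.18, adjusted p = 0.0106). For *Hvcn1* the call was lost without library 6 (adjusted p = 0.0564) or 8 (0.0874). *Cybb* had 1300 and 2151 CPM in SP Gr-1hi and 1493 and 1646 CPM in SP Gr-1lo. These groups overlapped, and the log2 FC of 0.14 (SE 0.21, adjusted p = 0.571) did not pass. The sign of this value depended on which SP Gr-1hi library was kept, since it was 0.43 (adjusted p = 0.00996) without library 5 and -0.30 (adjusted p = 0.0508) without library 6.

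The size of every difference between subsets depended on scaling. TMM factors were 0.724 to 0.863 in Gr-1hi and 1.26 to 1.30 in Gr-1lo libraries, and the 10 genes with most counts took 9.14% to 14.4% of a Gr-1hi library but 5.30% to 5.91% of a Gr-1lo library. Scaled by library totals alone, an alternative chosen after seeing the data, the log2 FC in BM was 4.34 for *Padi4*, 2.09 for *Ncf1*, 1.63 for *Rac2*, 1.05 for *Ncf4*, 0.72 for *Hvcn1*, 0.43 for *Cyba* and 0.33 for *Cybb*, and *Cybb* no longer passed (adjusted p = 0.146). It also missed the threshold in edgeR's exact test on quantile-normalized TPM (0.41, adjusted p = 0.132). With library totals the median of all genes in BM was -0.99, against -0.17 with TMM. In SP, library totals gave a log2 FC of -0.47 for *Cybb* (adjusted p = 0.0519), the opposite sign, and *Cyba* (0.08, adjusted p = 0.475) and *Hvcn1* (0.05, adjusted p = 0.817) did not pass. The median of all genes was -0.69 there. *Cyba* (0.11, adjusted p = 0.522) and *Hvcn1* (0.45, adjusted p = 0.113) did not pass in SP on quantile-normalized TPM either. *Ncf1*, *Ncf4*, *Rac2* and *Padi4* passed in both tissues under all 3 settings.

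Levels of different genes were compared as TPM (transcript counts scaled to exon length and total). In BM Gr-1hi the order was *Rac2* (mean 1613 TPM), *Ncf1* (1519), *Cyba* (995), *Cybb* (801), *Ncf4* (713), *Padi4* (491) and *Hvcn1* (64.6). In this group no neighbours in the order overlapped between libraries. In SP Gr-1hi the order was the same, with *Rac2* at 1454 and *Ncf1* at 971 TPM, but *Ncf1* (793 and 1150 TPM) overlapped *Cyba* (831 and 898 TPM), and *Cybb* (468 and 714 TPM) overlapped *Ncf4* (528 and 591 TPM). In Gr-1lo cells the membrane core led. *Cyba* (773 TPM) and *Cybb* (669 TPM) were highest in BM Gr-1lo, without overlap, and *Cybb* (797 TPM) and *Cyba* (795 TPM) overlapped in SP Gr-1lo. *Ncf1* and *Ncf4* overlapped in both Gr-1lo groups. *Padi4* came last in both Gr-1lo groups, at 25.4 TPM in BM and 26.3 TPM in SP.

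**Figure D2:**
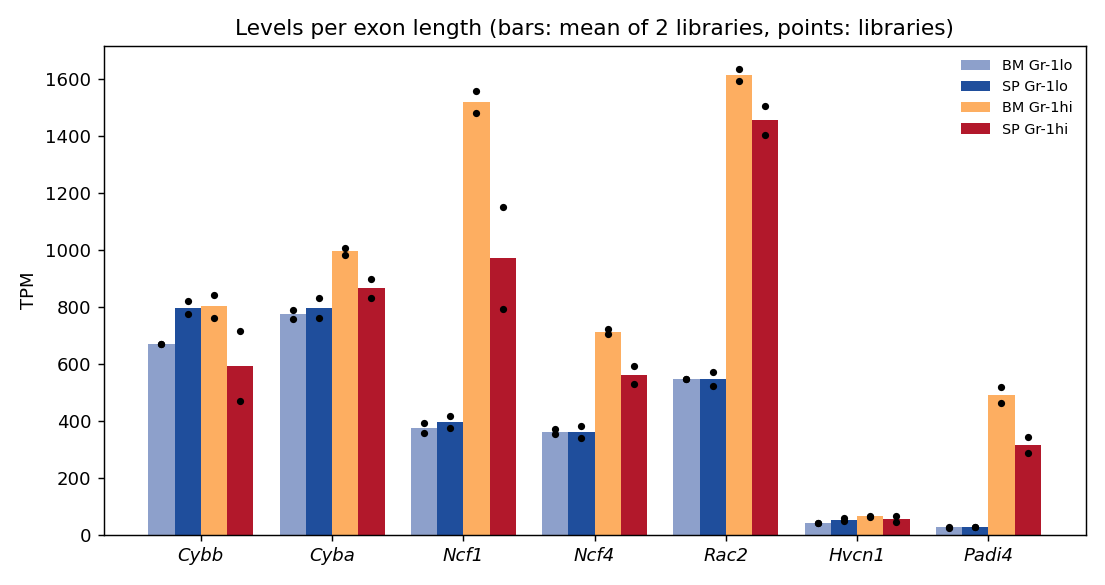
TPM of each gene by group, with bars at the mean of 2 libraries and a point for each library, on an axis from 0. *Cybb* and *Cyba* stay between 468 and 1006 TPM in all 8 libraries, while *Ncf1* and *Rac2* are the highest of the 7 genes in both BM Gr-1hi libraries.

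The makeup of the oxidase transcripts differed between subsets, given here as ratios of TPM with no test. There were 1.61 to 2.05 *Ncf1* for each *Cybb* in the 4 Gr-1hi libraries and 0.457 to 0.584 in the 4 Gr-1lo libraries. The ratio of *Cybb* to *Cyba*, whose proteins pair in equal number, stayed between 0.774 and 1.08 in 7 libraries and was 0.563 in library 5. *Rac2* exceeded *Rac1*, which encodes the Rac protein found in most cell types, by 10.1 to 13.1 times in Gr-1hi and by 2.04 to 2.40 times in Gr-1lo libraries. *Padi4* exceeded *Padi2*, its more widely expressed relative, by 154 to 565 times in Gr-1hi libraries, but the ratio was 0.926 to 1.61 in Gr-1lo libraries. One exon length per gene was used, so a gene with long unused exons has too low a TPM, and exon use in each group was not tested.

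Between the Gr-1hi subsets, all 7 genes had lower CPM in both SP libraries than in either BM library, and 6 passed the test. Groups did not overlap in this direction for 31.9% of all genes, and 13.9% passed as lower and 20.1% as higher in SP. None of the 7 reached the study's FC of 2, which 1.48% of all genes did in this direction with an adjusted p of at most 0.05. *Padi4* was at 1417 ± 62.2 CPM (SD, n = 2) in BM and 762 ± 137 CPM in SP (log2 FC -0.90, SE 0.13, adjusted p = 0.0019). *Ncf1* fell from 3325 ± 0.517 to 1786 ± 562 CPM, also by a log2 FC of -0.90 (SE 0.19, adjusted p = 0.00812). These were the largest decreases of the set. Of the genes that mark the sort gates, *Itgam* fell too (log2 FC -0.65, adjusted p = 0.00845). *Ly6g* had -0.85 without overlap but did not pass (adjusted p = 0.0562), and the monocyte gene *Csf1r* rose by 1.05 (adjusted p = 0.00434).

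*Ncf4* fell from 861 ± 18.0 to 564 ± 77.0 CPM (SD, n = 2), a log2 FC of -0.61 (SE 0.11, adjusted p = 0.00399). *Cyba* fell from 618 ± 32.6 to 448 ± 49.8 CPM (log2 FC -0.46, SE 0.10, adjusted p = 0.00858). *Rac2* fell from 2991 ± 53.6 to 2246 ± 18.1 CPM, with a log2 FC of -0.41 (SE 0.08, adjusted p = 0.00707). *Cybb* was at 2786 ± 301 CPM in BM and 1726 ± 602 CPM in SP (log2 FC -0.69, SE 0.21, adjusted p = 0.0343), and *Hvcn1*, at 137 ± 0.585 and 99.3 ± 29.2 CPM, did not pass (log2 FC -0.47, SE 0.18, adjusted p = 0.077). *Tctn1*, on the other strand of *Hvcn1*, rose by 0.69 (adjusted p = 0.0242).

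Library 5 was the lower of the 2 SP Gr-1hi libraries for all 7 genes, where it was lower for 57.0% of the 8597 genes with at least 10 CPM on average. It had 60.4% of the *Cybb* CPM of library 6, 63.6% of *Ncf1*, 65.6% of *Hvcn1*, 77.5% of *Padi4*, 82.4% of *Ncf4*, 85.4% of *Cyba* and 98.9% of *Rac2*. Without libraries 5 and 7, which left 1 SP Gr-1hi library, the log2 FC was -0.71 for *Padi4*, -0.59 for *Ncf1* and -0.46 for *Ncf4*. It was -0.36 for *Cybb*, -0.34 for *Cyba* and -0.39 for *Rac2*. With library totals alone 3 of the 7 genes passed, *Padi4* (-0.69), *Ncf1* (-0.70) and *Ncf4* (-0.40). *Cybb*, on chromosome X, lost its call under 9 of 16 other settings, with log2 FCs from -1.18 to -0.36 over all 16. On quantile-normalized TPM *Cybb* (-0.52, adjusted p = 0.177) and *Cyba* (-0.32, adjusted p = 0.0806) missed the threshold.

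**Figure D3:**
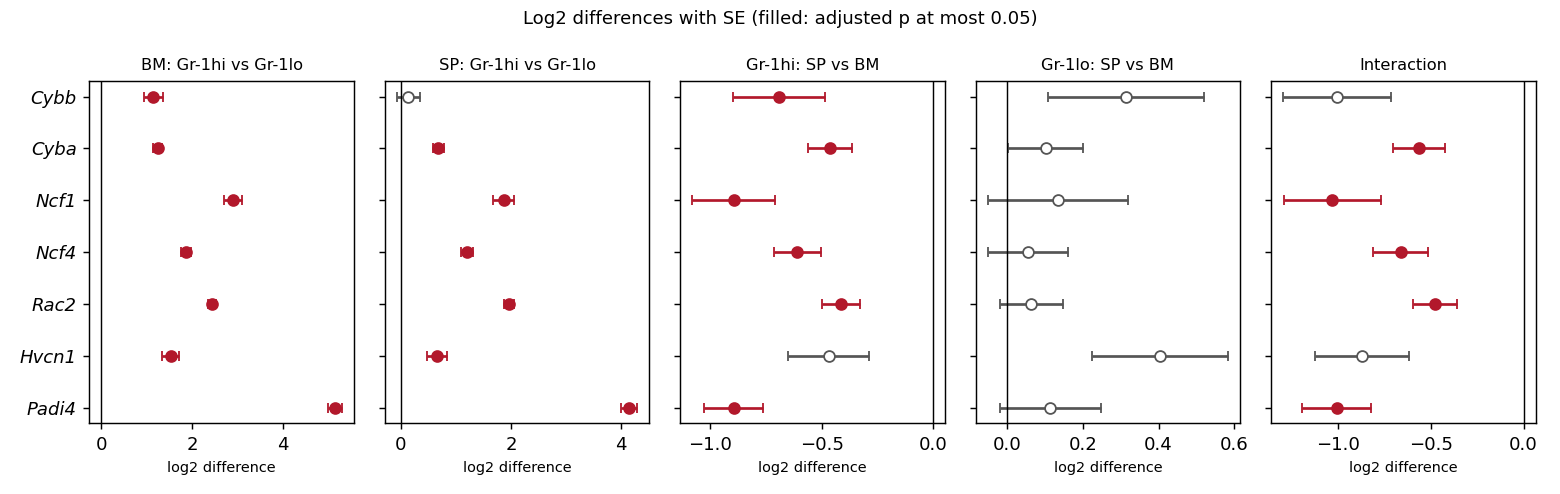
Log2 differences with their SE for the 7 genes in 5 comparisons, each panel with its own axis and a line at 0. Filled points passed at an adjusted p of at most 0.05, as 7 genes did between BM subsets, 6 between SP subsets, 6 between Gr-1hi subsets, 0 between Gr-1lo subsets and 5 in the interaction.

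Markers of neutrophil stages and of other cells moved between the same libraries. The summed CPM of 9 genes of mature neutrophils was 62657 to 72929 in SP Gr-1hi and 100116 to 106389 in BM Gr-1hi, and that of 7 secondary granule genes was 33014 to 59618 against 75530 to 83644, with library 5 at the lowest of each. Most of the mature neutrophil sum came from *S100a8* and *S100a9*, and of its 9 genes 3 passed as lower and 1 as higher in SP, with *Csf3r* at 9073 and 6879 CPM in SP Gr-1hi against 4973 and 3830 CPM in BM Gr-1hi. Of the 7 secondary granule genes 5 passed as lower and 0 as higher. Primary granule genes, 5 in all, summed to 12.4 to 20.7 CPM in SP Gr-1hi and 39.7 to 43.3 CPM in BM Gr-1hi. The 10 B cell genes, all of which passed as higher in SP, summed to 360 to 537 CPM in SP Gr-1hi and 16.3 to 19.9 CPM in BM Gr-1hi. B cells also express *Hvcn1* and several oxidase genes. The 10 T cell genes summed to 76.6 to 127 against 7.06 to 11.2 CPM, the 10 splenic macrophage genes to 983 to 1164 against 621 to 693 CPM, and 9 monocyte genes to 1151 to 1508 against 1402 to 1847 CPM. *Ly6c2* made up most of the monocyte sum in BM, while 3 of the 9 genes passed as higher and 1 as lower in SP, with *Irf8* at 51.0 and 46.6 CPM in SP Gr-1hi against 5.38 and 10.5 CPM in BM Gr-1hi. No marker of B cells, T cells, NK cells or splenic macrophages was at 0 in a Gr-1hi library, while *Tnfrsf17* of plasma cells was at 0 in libraries 6, 9 and 10, *Klf1* of erythroid cells in 5, 9 and 10, and 1 or 2 of the dendritic cell genes in each BM Gr-1hi library. The part of these cells in the decreases was not tested.

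The remaining lists differed in size and direction. In SP Gr-1hi against BM Gr-1hi, plasma cell genes summed to 288 to 392 against 101 to 102 CPM, dendritic cell genes to 111 in each SP library against 38.5 to 46.7 CPM, and NK cell genes to 10.3 to 14.0 against 1.78 to 2.28 CPM. *Itgax* made up most of the dendritic cell sum in SP, with 81.9 and 83.8 CPM in SP Gr-1hi against 34.1 and 20.9 CPM in BM Gr-1hi. Of the 8 dendritic cell genes, 3 passed as higher and 1 as lower in SP. Erythroid genes summed to 218 to 735 against 35.9 to 44.1 CPM. Platelet genes (6.48 to 7.02 against 4.54 to 7.22 CPM) and eosinophil and basophil genes (45.3 to 57.1 against 48.3 to 76.3 CPM) overlapped between the groups.

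Between the Gr-1lo subsets, none of the 7 genes passed, where 5.58% of all genes did in either direction, 4.88% as higher and 0.697% as lower in SP. *Hvcn1* had 68.9 and 57.2 CPM in SP Gr-1lo and 48.4 and 46.9 CPM in BM Gr-1lo (log2 FC 0.40, SE 0.18, adjusted p = 0.261). *Cybb* had 1493 and 1646 CPM against 1249 and 1276 CPM (log2 FC 0.31, SE 0.21, adjusted p = 0.443). The other 5 genes had log2 FCs from 0.05 for *Ncf4* to 0.14 for *Ncf1*, with SEs from 0.08 to 0.18. For 5 of the 7 genes both SP libraries were above both BM libraries, as for 27.1% of all genes, and *Ncf4* and *Padi4* overlapped. In a fit of these 4 libraries alone, *Cybb* (0.34, adjusted p = 0.0371) and *Hvcn1* (0.43, adjusted p = 0.0396) passed. The B cell genes summed to 66.7 to 83.8 CPM in SP Gr-1lo and 8.07 to 9.90 CPM in BM Gr-1lo, and the secondary granule genes to 9341 to 10569 against 5211 to 6075 CPM, whose part was not tested.

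Whether the tissue difference depended on the subset was tested as an interaction, the log2 FC of SP against BM in Gr-1hi minus that in Gr-1lo cells. It was negative for all 7 genes and passed for 5, where 6.08% of all genes passed in this direction and 10.3% in the other. The values were -1.03 for *Ncf1* (SE 0.26, adjusted p = 0.0336), -1.01 for *Padi4* (SE 0.19, adjusted p = 0.0116), -0.66 for *Ncf4* (SE 0.15, adjusted p = 0.0224), -0.56 for *Cyba* (SE 0.14, adjusted p = 0.0294) and -0.48 for *Rac2* (SE 0.12, adjusted p = 0.03). *Cybb* (-1.01, SE 0.29, adjusted p = 0.0514) and *Hvcn1* (-0.87, SE 0.26, adjusted p = 0.0519) missed the threshold narrowly. The gate genes *Ly6g* (-1.59, SE 0.42, adjusted p = 0.0456) and *Itgam* (-0.91, SE 0.19, adjusted p = 0.0179) also passed, while *Csf1r* (0.41, SE 0.26, adjusted p = 0.32) did not. Without libraries 5 and 7, which left 1 library in each SP group, the interaction of *Padi4* was -0.86. The calls of *Ncf1*, *Ncf4*, *Cyba* and *Rac2* were each lost under 6 of 14 other settings, and that of *Padi4* under none. With library totals alone, *Padi4* (-0.80, adjusted p = 0.0144) and *Ncf1* (-0.83, adjusted p = 0.0479) passed.

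**Figure D4:**
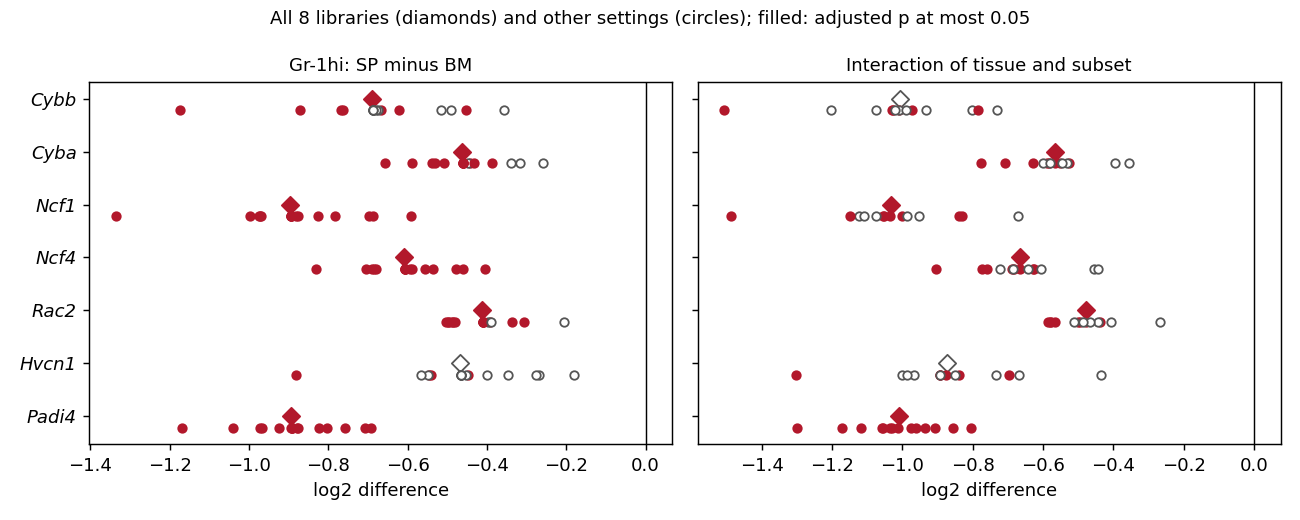
Log2 differences of the 7 genes between SP and BM Gr-1hi cells (left) and in the interaction (right), with all 8 libraries as diamonds and each other setting as a circle, filled where the adjusted p was at most 0.05. Every value is below 0, and only *Padi4* is filled under every setting in both panels.

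The other oxidase genes were mixed. Of 14 further genes of oxidase subunits, partners and assembly, 6 had enough counts to be tested, and the 8 left out, *Nox1*, *Nox3*, *Nox4*, *Noxa1*, *Duox1*, *Duox2*, *Duoxa1* and *Duoxa2*, had at most 12 counts in any library. *Cybc1*, whose product is needed for the cytochrome to mature, had log2 FCs of 0.51 and 0.60 between the subsets of BM and SP, which were -0.31 and 0.00 with library totals, and 0.03 (SE 0.10, adjusted p = 0.83) between Gr-1hi subsets. *Rac1* was lower in Gr-1hi cells, by -0.23 (adjusted p = 0.028) in BM and -0.22 (adjusted p = 0.0336) in SP, but did not pass with RLE or upper-quartile scaling. In BM 2 of the 6 genes were higher and 3 lower in Gr-1hi cells, and in SP 2 and 4. Of the 6 genes, 1 rose and 2 fell between Gr-1hi subsets, with a median log2 FC of -0.03 against 0.03 for all genes, and 0 passed between Gr-1lo subsets. In the interaction 2 were lower and 0 higher.

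Genes that act on the oxidase, 24 in all and all tested, had a median log2 FC of 1.19 between BM subsets, where 18 were higher and 3 lower in Gr-1hi cells, and of 0.61 between SP subsets, with 17 higher and 3 lower. With library totals these counts were 12 and 7 in BM and 11 and 6 in SP. Among them *Itgb2*, the integrin chain that pairs with CD11b, and *Prkcb*, a kinase that phosphorylates p47phox, had log2 FCs of 1.56 and 1.37 in SP. Between Gr-1hi subsets 10 fell and 5 rose in SP, with a median of -0.20, but 5 fell and 7 rose with library totals. *Arhgdib*, which holds Rac proteins in the cytosol, fell by 0.83 (adjusted p = 0.00499), *Itgb2* by 0.58 (adjusted p = 0.00336) and *Pik3cg* by 0.60 (adjusted p = 0.00528) on the log2 scale. The increases included *Clec7a* (1.07, adjusted p = 0.00181), which encodes the beta-glucan receptor Dectin-1, *Tnfaip3* (0.90, adjusted p = 0.0111), an inhibitor of NF-κB signalling, and *Nrros* (0.79, adjusted p = 0.000805), which limits oxidase activity by promoting loss of gp91phox. Between Gr-1lo subsets 4 rose and 0 fell, among them *Tnfaip3* (1.14, adjusted p = 0.0141) and *Prkcb* (0.41, adjusted p = 0.0419, not passing with RLE scaling or library totals). In the interaction 7 were lower and 1 higher, or 4 and 2 with library totals. The 1 higher gene was *Nrros* (0.74, adjusted p = 0.0105).

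Of 26 genes that remove or buffer reactive oxygen, 25 were tested, and their directions were mixed. Between BM subsets 10 were higher and 13 lower in Gr-1hi cells, or 7 and 17 with library totals, with *Prdx4* at -6.18, *Gpx3* at -4.46 and *Prdx1* at -4.28, and *Slc7a11* at 5.29, *G6pdx* at 1.93 and *Prdx5* at 1.87 on the log2 scale. *G6pdx* encodes an enzyme that supplies NADPH, and the peroxiredoxins remove peroxides. Between SP subsets 8 were higher and 14 lower, or 7 and 17 with library totals. Between Gr-1hi subsets 8 rose and 7 fell in SP, or 11 and 6 with library totals. The peroxiredoxins split there, since *Prdx1* (1.16, adjusted p = 0.000357) and *Prdx2* (0.82, adjusted p = 0.000902) rose, and *Prdx5* (-0.65, adjusted p = 0.00365) and *Prdx6* (-0.76, adjusted p = 0.02) fell. *Sod1*, the cytosolic superoxide dismutase, rose by 0.74 (adjusted p = 0.00181) and *G6pdx* fell by 0.57 (adjusted p = 0.00504). Between Gr-1lo subsets 2 rose and 2 fell, with *Sod2* at 0.72 (adjusted p = 0.0229) and *Sod1* at -0.58 (adjusted p = 0.0125). In the interaction 5 were higher and 5 lower, or 7 and 3 with library totals.

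Among the other peptidylarginine deiminases, *Padi2*, *Padi3* and *Padi6* were tested, while *Padi1* had at most 6 counts. *Padi2* went opposite to *Padi4*. It had 41.4 and 36.4 CPM in BM Gr-1lo, 27.2 and 28.7 in SP Gr-1lo, 2.80 and 2.52 in BM Gr-1hi and 4.49 and 2.36 in SP Gr-1hi, with log2 FCs of -3.86 (adjusted p = 2.1e-06) between BM subsets and -3.02 (adjusted p = 9.55e-06) between SP subsets. *Padi3* and *Padi6* were higher in Gr-1hi cells of both tissues but had under 2 CPM in every library, and none of the 3 passed between tissues.

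Of 15 genes of NET formation, 8 were higher and 7 lower in Gr-1hi cells in each tissue, or 5 and 7 in BM and 6 and 7 in SP with library totals. *Cxcr2*, a chemokine receptor of neutrophils, and *Ltf* (lactoferrin) had log2 FCs of 7.44 and 6.01 between BM subsets, as did *Padi4* in direction, while the proteases and peroxidase that are stored early, *Elane* (-7.53), *Prtn3* (-6.84) and *Mpo* (-6.22), went the other way. Between Gr-1hi subsets 3 rose and 5 fell in SP. *Mpo* fell most of those named, from 26.0 and 18.9 CPM in BM Gr-1hi to 3.35 and 8.13 CPM in SP Gr-1hi. *Camp* (-0.84, adjusted p = 0.0455, but 0.0867 with library totals) and *Lcn2* (-0.84, adjusted p = 0.012) fell by a size near that of *Padi4*. *Casp4* (1.03, adjusted p = 0.00557) and *Ripk3* (0.98, adjusted p = 0.0139), which encode proteins of lytic cell death, rose. Between Gr-1lo subsets 3 rose, *Ltf* by 2.02 (adjusted p = 0.0027), *Lcn2* by 1.34 (adjusted p = 0.00556) and *Cxcr2* by 0.85 (adjusted p = 0.0139), and 2 fell, whereas *Padi4* had 0.11 (SE 0.13, adjusted p = 0.684). In the interaction 1 was higher and 4 lower, or 3 and 3 with library totals.

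The genes most like each member were sought, whether or not they were in the lists. Likeness of pattern was measured as the root mean square difference of log2(CPM + 1), each gene centred on its mean over the 8 libraries, among 8596 other genes with a mean of at least 10 CPM. The likeness between members varied, and they were not grouped by any method. *Ncf4* differed from *Hvcn1* by 0.275, from *Cyba* by 0.288 and from *Rac2* by 0.355. *Cyba* differed from *Hvcn1* by 0.159 and from *Cybb* by 0.251, and *Ncf1* from *Rac2* by 0.260, while *Padi4* differed from *Ncf1*, the nearest member, by 1.13. Outside the set, the nearest genes were *Lrmp*, *Myo5a* (0.121) and *Abcc5* for *Cybb*, *Rabif* (0.0320), *Zfp142* and *Ppp1r15b* for *Cyba*, *Ckap4* (0.0716) and *Usp46* for *Ncf1*, and *Med31* (0.0216), *Camk2g* and *Riok3* for *Ncf4*. For *Rac2* they were *Pbx2* (0.0397), *Cmtr1* and *Ndel1*, for *Hvcn1* *Lpgat1* (0.107), *March8* and *H2-Ke6*, and for *Padi4* *Acvrl1* (0.0856), *Pnpla1* and *Rhoc*. *Cybb* and *Hvcn1*, which had the widest spread between libraries 5 and 6 beside *Ncf1*, had the least close neighbours among the oxidase genes.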

How the data were processed

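The authors made TruSeq Stranded mRNA libraries and sequenced paired reads on a NovaSeq. By their methods, read quality was assessed in FastQC 0.11.8, and reads were trimmed by Sickle 1.33, aligned to GRCm38.p6 with STAR 2.5.3a and counted per gene with featureCounts of Subread 1.6.4 (GENCODE M24). The deposited table holds whole counts of 54188 genes in 8 libraries, without normalization or pooling. The TPM, quantile normalization and tests of the study are not in it.

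Counts were analysed in R 4.3.3 with edgeR 4.0.16. filterByExpr left 17650 genes, libraries were scaled by TMM, and 1 robust quasi-likelihood model held all 8 libraries and the 4 groups (4 residual degrees of freedom), with Benjamini-Hochberg adjustment over the genes tested. SE is the log2 FC divided by the square root of F. Means carry the SD of 2 libraries. TPM used union exon lengths of GENCODE M21 (GRCm38), which held 53947 of the 54188 genes. The limit set by an observed 0 was taken as 3 counts (0.0348 to 0.124 CPM, counting error only). The study calls the 2 libraries of a group independent biological replicates. The chi-square statistic between them was 18.9 to 66.7 times its degrees of freedom, beyond sampling noise, and none were merged.

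The genes, the lists (oxidase, oxidase control, redox defence, deiminases, NETs and cell type markers) and the tests were chosen with earlier results of these data known. Named genes are the 7 genes, the 3 most abundant of each list, up to 3 per list, comparison and direction with the largest change among those passing with at least 10 CPM, the 3 nearest in pattern and checks of the labels. Others (*Csf3r*, *Irf8*, *Itgax*, *Klf1*, *Ly6c2*, *S100a8*, *S100a9*, *Tnfrsf17*, *Padi1*, *Tctn1*, *Gtf2ird2* and the untested oxidase genes) were named after their values were seen. Alternatives were RLE, upper-quartile and library-total scaling, no filter, DESeq2 1.42.0, a fit of the 4 libraries compared, edgeR's exact test on quantile-normalized TPM (sum of at least 10), leaving out each library, and leaving out libraries 5 and 7. The code was tested on simulated counts. Results for a few genes are not reported here.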

Additional observations from a re-analysis of the deposited data

Results flagged for a closer look

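For 5 of the 7 genes the difference between SP and BM passed as dependent on the Gr-1 subset, by an adjusted interaction test in edgeR. Of all genes tested, 6.08% passed with a negative and 10.3% with a positive interaction. Apart from that of *Padi4*, each of these calls was lost under some of the other settings. The interaction on the log2 scale was -1.03 for *Ncf1*, -1.01 for *Padi4*, -0.66 for *Ncf4*, -0.56 for *Cyba* and -0.48 for *Rac2*. In each case the CPM was lower in both SP Gr-1hi libraries than in either BM Gr-1hi library, while the Gr-1lo subsets did not pass. The summed secondary granule markers and the gate genes *Ly6g* and *Itgam* moved the same way between the Gr-1hi groups, and their part was not tested. No group had enough libraries for a check of single outlying values.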

How the results depend on the processing

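No paired analysis was possible because the labels number the libraries from 5 to 12 without repeating a number between groups and do not tie libraries to mice. With 2 libraries per group, each single library weighs heavily, and depth limited none of the 7 genes, all of which had at least 1804 counts in every library. Of 546 recomputed log2 FCs of these genes, 468 kept their direction and side of the threshold, 48 lost and 22 gained a call, and 8 changed sign. The sign changes were in values that had not passed: between Gr-1lo subsets, *Ncf4* was -0.0020 with RLE scaling, -0.014 with DESeq2, -0.017 without libraries 5 and 7 and -0.0011 to 0.12 without each library in turn (lowest without library 7), and *Rac2* was -0.0045 with DESeq2. Between SP subsets, *Cybb* was -0.47 with library totals, -0.38 on quantile-normalized TPM and -0.30 (without library 6) to 0.43 (without library 5) when a library was left out. RLE scaling moved CPM by -6.81% to 8.65% per library, which exceeded the SD of 2 libraries for 17 of 28 group means.

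The number of the 7 genes that passed between Gr-1hi subsets was 3 rather than 6 with library totals, with the 4 libraries compared and without libraries 5 and 7, 4 on quantile-normalized TPM, and 5 to 7 without each library in turn. In the interaction it was 2 rather than 5 with library totals and 1 without libraries 5 and 7, and 1 to 7 without each library. Between Gr-1lo subsets it was 1 rather than 0 without the filter and 2 with the 4 libraries compared, and 0 to 1 without each library. Between BM subsets it was 7 without each library, but 6 rather than 7 with library totals and on quantile-normalized TPM, both of which lost *Cybb*. Between SP subsets it was 5 to 7 without each library, and 4 rather than 6 with library totals and on quantile-normalized TPM, which lost *Cyba* and *Hvcn1*. Counts over all genes moved too, and the cause was not tested. Between Gr-1lo subsets 984 genes passed (3545 at an unadjusted p under 0.05), 2007 without the filter, 1604 with DESeq2, 2007 with the 4 libraries compared, 404 on quantile-normalized TPM and 426 to 1401 without each library. Between Gr-1hi subsets 5998 passed, 3863 with the 4 libraries compared, 1402 on quantile-normalized TPM, 2820 without libraries 5 and 7 and 4208 to 7266 without each library. Quantile-normalized TPM gave 6956 rather than 13359 between BM subsets and 5774 rather than 12601 between SP subsets, where leaving out a library gave 12154 to 13708 and 11024 to 12791. The fits of 4 libraries and of quantile-normalized TPM were not made for the interaction, in which 2891 genes passed, 1003 without libraries 5 and 7, and 1067 to 4683 without each library.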
